A study of Mus musculus with 12 samples.

Results

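The 76 genes described here encode proteins of the cytosolic ribosome. They were chosen by name alone, as protein-coding mouse genes called Rpl or Rps with a number and at most an a or x after it, together with Rplp0, Rplp1, Rplp2 and Rpsa. Of the 48672 gene IDs counted in the series, 76 met this rule. Proteins of the small (40S) subunit were encoded by 30 of them and proteins of the large (60S) subunit by 46. A few ribosomal proteins with other symbols, such as Rps3a1, Rack1 and Fau, fall outside the rule and are given beside it.

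Each cytosolic ribosome holds 1 copy of nearly every one of these proteins, and cells make them together with ribosomal RNA. Most of their mRNAs start with a run of pyrimidines, the 5′ terminal oligopyrimidine (TOP) tract, through which the kinase complex mTORC1 and the RNA-binding protein LARP1 set how well they are translated and how long they last. In T cells the supply of ribosomes is known to grow when a resting cell prepares to divide.

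The cells were thymic iNKT (invariant natural killer T) cells, which recognise lipid antigens, sorted with a tetramer and taken for RNA sequencing. The 4 groups were Bcl6KO stage 1, WT stage 1, Bcl6KO stage 0 and WT stage 0, with 3 libraries each. Stage 0 (ST0) cells carried CD24 and stage 1 (ST1) cells had lost it, and cells of both stages were TCRb positive and CD44 negative. All mice were C57Bl/6J of 4 to 5 weeks, and thymi of 4 to 7 mice were pooled. Bcl6KO mice had floxed alleles of Bcl6 (Bcl6F/F), the gene of a transcriptional repressor, and a Cre given in the labels as CDCre, with no promoter named. Whether each library of a group had a pool of its own is not in the labels. The p-values therefore rest on the variation among these 12 libraries, which may be technical. The study asks what BCL6 does in the earliest innate-like T cells.

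Counts for Bcl6 itself ran from 508 to 654 CPM (counts scaled to a common library size) in the ST0 libraries labelled Bcl6KO, against 215 to 371 CPM in WT ST0, and from 14.6 to 55.8 CPM in those labelled Bcl6KO at ST1, against 4.13 to 8.72 CPM in WT ST1. They cover the whole gene, and the floxed exons are not known from the sources used here; the counts check neither the deletion nor the labels. Cd24a, the gene of the marker that separates the stages, averaged 1.32 CPM in Bcl6KO ST1, 5.81 CPM in WT ST1, 241 CPM in Bcl6KO ST0 and 166 CPM in WT ST0. The 15 markers of iNKT and T cells each had counts in every group, and together summed to between 4719 and 8473 CPM in a library. Markers of other cells summed to up to 177 CPM for B cells (7 genes), between 69.6 and 240 CPM for myeloid and dendritic cells (9 genes), up to 23.2 CPM for erythroid cells (6 genes, 3 of them at 0 throughout) and between 25.3 and 80.1 CPM for thymic epithelium (5 genes, 2 at 0 throughout). The 8 markers of double-positive thymocytes, the precursor stage, summed to between 444 and 968 CPM in Bcl6KO ST1, 201 to 587 CPM in WT ST1, 1321 to 1398 CPM in Bcl6KO ST0 and 537 to 1622 CPM in WT ST0. Library totals ran from 4129919 to 8038717 counts. In bulk RNA, fewer cells of a type and less RNA per cell cannot be told apart.

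The start sequences show what the members share in structure. A RefSeq start window (build GRCm38.p6, 250 bases before to 50 after the annotated start) was at hand for 56 of the 76 genes. A TOP-like run, meaning a C followed by at least 4 letters that are each C or T, with that C within 10 bases of the annotated start on either side, was present for 34 of the 56, or 60.7%, against 34.4% of 27025 mouse genes with a window. Among these 34 genes the longest run had 5 to 20 letters, with a median of 8.5. No such run was found for Rpl4, Rpsa, Rpl5, Rplp0 or Rps4x, which are also named in the results below. The rule reads letters near the annotated start only, and whether transcripts start there in these cells was not tested. The following 30-base windows, from 10 bases before to 20 from the start on, belong to members named below and picked for having a run, which is in capitals. They lie at chr4:86857348-86857377 (minus strand) for Rps6, chr7:141447641-141447670 (plus) for Rplp2, chr3:130730318-130730347 (minus) for Rpl34, chr7:109519185-109519214 (plus) for Rpl27a and chr14:18270967-18270996 (minus) for Rpl15.
Rps6: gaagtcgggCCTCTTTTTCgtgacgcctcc
Rplp2: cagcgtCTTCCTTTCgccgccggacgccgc
Rpl34: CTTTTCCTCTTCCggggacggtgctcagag
Rpl27a: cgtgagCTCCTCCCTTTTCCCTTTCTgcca
Rpl15: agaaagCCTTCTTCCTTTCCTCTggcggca
Rps6 has a run of 10 letters that opens 1 base before the start, and Rpl27a has the longest run of all, with 20. Rpl15 has a run of 17 letters. Rpl34 has 13, counted from the edge of the window.

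Other motifs were searched on both strands of the whole window. The ETS-family core CCGGAAG stood in 41.1% of the members' windows, against 9.9% of all genes. A GC box (GGGCGG) stood in 60.7% of the members' windows, against 38.2%, and the YY1 core AAGATGG in 16.1%, against 7.3%. The letters TATAAA stood in 10.7% of the members' windows, against 15.7%. A BCL6-like pattern, TTCNNNGAA, stood in 5.4%, against 9.6% of all genes. The TOP consensus CTCTTTC stood in 30.4%, against 9.3%. A match of letters is a description only.

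The 76 genes took 1.59% to 3.11% of the counts in ST1 libraries and 1.11% to 2.42% in ST0 libraries. In Bcl6KO ST1 libraries the share was 2.52%, 1.80% and 1.59%, with a mean of 1.97 ± 0.487% (SD, n = 3). In WT ST1 libraries it was 2.97%, 3.11% and 2.23%, with a mean of 2.77 ± 0.475%. In Bcl6KO ST0 libraries it was 1.68%, 1.11% and 1.26% (1.35 ± 0.296%), and in WT ST0 libraries 1.89%, 2.42% and 1.38% (1.90 ± 0.517%). WT ST1 thus had the highest mean, and the shares overlapped between groups in every one of the 4 pairs compared. The ratio of 60S to 40S counts differed by less than the spread between libraries, with 1.66 ± 0.0958 in Bcl6KO ST1, 1.64 ± 0.165 in WT ST1, 1.74 ± 0.0985 in Bcl6KO ST0 and 1.71 ± 0.107 in WT ST0.

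Shares of the total are moved by other genes. Sp100, a nuclear body gene, took 10.8% to 23.9% of counts in Bcl6KO ST0, against 0.0289% to 5.03% in WT ST0, and 0.0283% to 3.77% in Bcl6KO ST1, against 0.0303% to 0.937% in WT ST1. TMM scaling, a trimmed mean of ratios between libraries, is less moved by such genes. After it, the summed level was 20560, 17990 and 15200 CPM in Bcl6KO ST1, against 25220, 26940 and 20890 CPM in WT ST1. At ST0 it was 18600, 16860 and 16830 CPM in Bcl6KO, against 19420, 19960 and 13620 CPM in WT. On this scale the summed levels of the WT ST1 libraries lay above all others. The lowest of them, at 20890 CPM, stood just above the highest Bcl6KO ST1 library. The other 3 groups overlapped. WT ST1 and Bcl6KO ST1 overlapped with another scaling (RLE factors, or totals only) or with no filter, and WT ST1 and WT ST0 with totals only. Without WT ST0 replicate 3, the Bcl6KO ST0 libraries lay wholly below those of WT ST0. The median level of a member, unlike the sum, overlapped between WT ST1 and other groups on the TMM scale. It was 194.8 CPM in WT ST1 replicate 3, against 214.4 CPM in Bcl6KO ST1 replicate 1 and 221 CPM in WT ST0 replicate 2.

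**Figure D1:**
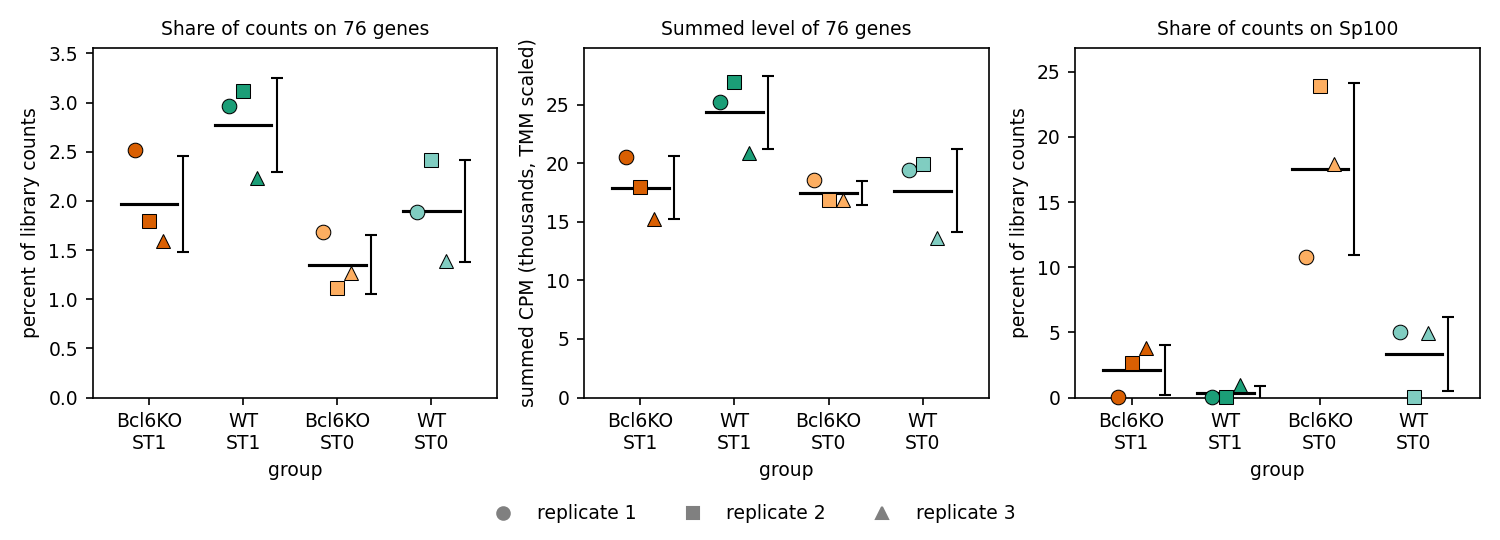
Share of counts on the 76 ribosomal protein genes (percent, left), their summed level after TMM scaling (kilo-CPM, middle) and the share of counts on Sp100 (percent, right), for each of the 12 libraries. Lines give the mean of 3 libraries and bars the SD. The WT ST1 libraries reach 25220 and 26940 CPM, and the Sp100 share is highest in Bcl6KO ST0.

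Within a library the genes spanned a wide range of levels. Per kilobase of the principal transcript, the median over the 76 genes was 221.3 CPM per kb (means of 12 libraries), with quartiles of 136.3 and 339.1 CPM per kb. Rpl10a, a 60S protein near the exit site of tRNA, stood highest at 1181 ± 262 CPM per kb (SD, n = 12). Rps6, the 40S protein phosphorylated by S6 kinases, followed at 893 ± 182 CPM per kb, and Rpl41, the smallest protein of the ribosome, at 843 ± 152 CPM per kb. Their spreads overlap, so their order among themselves is not fixed. Rpl10a was chosen for its value; the others were named by their level per merged exon or by their role.

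Lowest of all was Rpl24, a 60S protein at the bridge between subunits, at 11.01 ± 5.59 CPM per kb, with as few as 13 counts in a library. Rpl13a, a 60S protein also known for silencing inflammatory mRNAs, followed at 35.5 ± 19.8 CPM per kb. Both genes share exonic bases with another annotated gene that is listed at 0 in every library: 47.0% of the bases of Rpl24 lie in Gm28037, and 35.4% of those of Rpl13a in Gm45713 and small RNA genes. How the counting treated reads in such bases is not given in the sources used here, and its part in these levels was not tested. Across the 76 genes, the level per kilobase and the share of exonic bases in other genes had a rank correlation of 0.04, as a description. The top 10 genes by CPM held 33.7% of the members' level, and the order of the genes was much the same from library to library, with rank correlations of 0.734 to 0.976 (median 0.887, across 76 genes, a description).

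**Figure D2:**
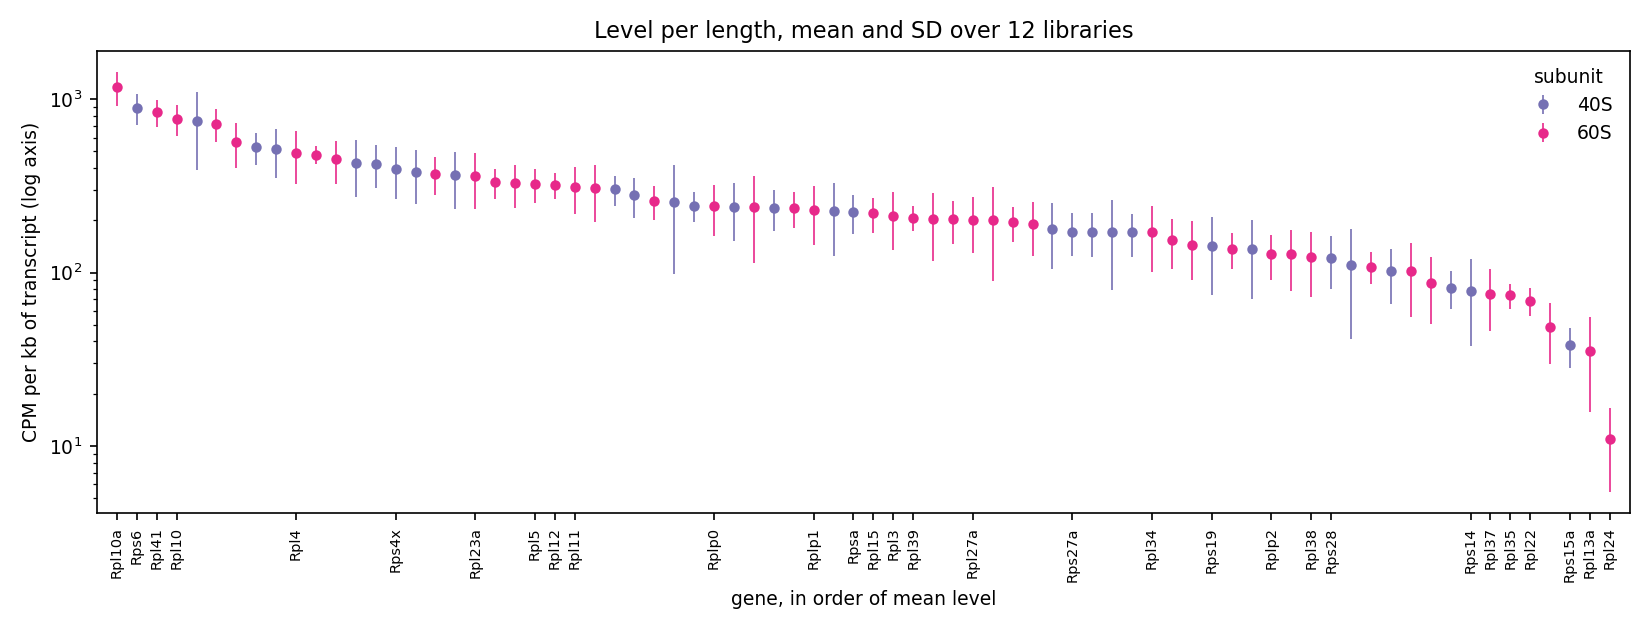
Level per kilobase of principal transcript (CPM per kb, log axis) of each of the 76 genes, in order of the mean, with the genes named in the text labelled. Points are means of 12 libraries and bars the SD, coloured by subunit. The means run from 1181 for Rpl10a to 11.01 for Rpl24, and both subunits are spread over the whole range.

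Many members have copies elsewhere. Of the 76 genes, 58 have at least 1 pseudogene named after them, and 273 such pseudogenes were in the files. A median of 24.2% of the 50-letter words in a member's transcript also occurred in transcripts of another gene, with the highest share, 84.0%, for Rpl35. Counts of single members can therefore have been split or added to by a near-identical copy. All named pseudogenes together took 0.122% to 0.253% of counts, and adding them to their parents left the medians given below within the spread between libraries. Another feature shared by members is that 29 of them carry snoRNA genes, 56 in all, inside their span.

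In WT cells, the comparison of ST1 with ST0 gave a higher level for nearly the whole set. The log2 fold change was above 0 for 75 of 76 genes, including all 30 of the 40S subunit and 45 of 46 of the 60S subunit. Over all 15704 genes tested, 50% lay above 0. The members' median was 0.46, against 0.00 for all genes, and the middle 50% of the members lay between 0.28 and 0.58. The libraries of the 2 groups did not overlap for 20 of 76 genes, all 20 higher in ST1, while 12.5% of all genes were higher without overlap and 9.04% lower. The count without overlap was 41 without WT ST0 replicate 2 and 45 without WT ST1 replicate 3. The medians of the 40S and 60S genes were 0.52 and 0.44.

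None of the 76 genes passed the test across all genes in that comparison (edgeR quasi-likelihood, with p adjusted by Benjamini-Hochberg and a threshold of 0.05), where 0.433% of all genes passed. An unadjusted p under 0.05 was found for 7 members, all higher in ST1, against 8.4% of all genes (4.15% higher and 4.25% lower), and DESeq2 and limma voom called none. The median standard error of a member was 0.35 on the log2 scale, and the biological coefficient of variation of the members ran from 0.261 to 0.684. The summed double-positive markers of all WT ST1 libraries were below those of 2 of the 3 WT ST0 libraries, and 3 of the 8 genes, all lower in ST1, passed edgeR's test. The 15 markers of iNKT and T cells summed to 4791 to 5544 CPM in WT ST1, against 6419 to 8202 CPM in WT ST0, without overlap. They did not all share a side: 4 of the 15 had a positive log2 fold change (median -0.33), and 2, both lower in ST1, passed edgeR's test. The nuclear RNA Malat1 took 0.615% to 1.44% of counts in WT ST1, against 2.48% to 2.98% in WT ST0, also without overlap. The part of each in the members' values was not tested.

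**Figure D3:**
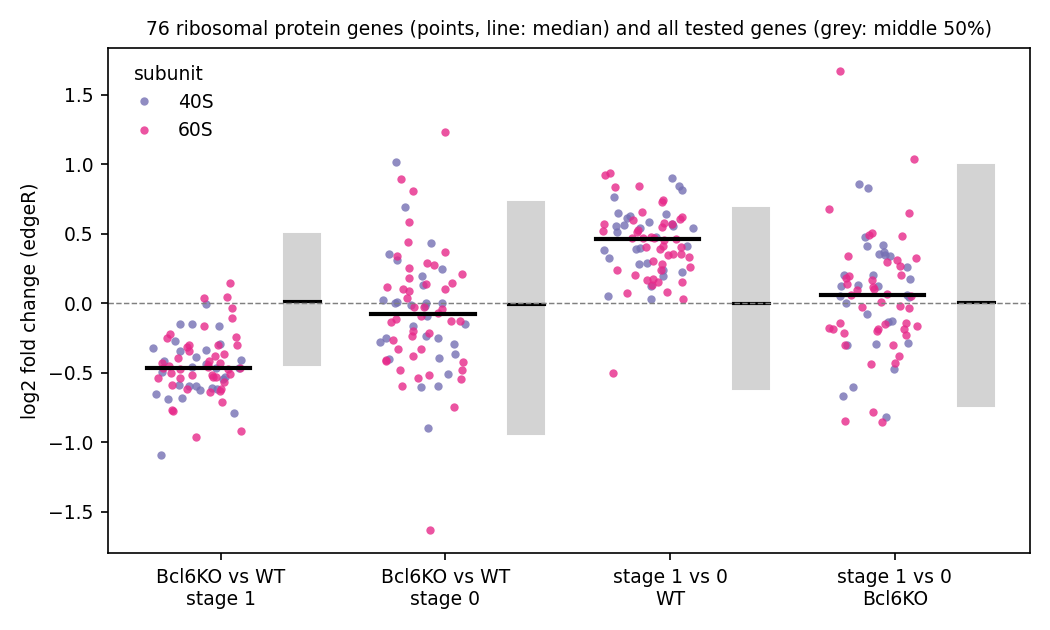
Log2 fold changes (edgeR) of the 76 genes in 4 comparisons, 40S and 60S genes coloured apart, with the members' median as a line and the middle 50% of all 15704 tested genes as a grey bar. The members lie above 0 for ST1 against ST0 in WT (median 0.46) and below 0 for Bcl6KO against WT at ST1 (median -0.46); the medians at ST0 and in Bcl6KO are near 0 on this scale, keep their sign with totals only (-0.56 and 0.56) and turn with the Sp100 share as a covariate (0.45 and -0.46).

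Rpl4, a 60S protein of the wall of the exit tunnel, had the lowest p of the members in that comparison. It was counted at 875, 1389 and 1128 CPM in WT ST1, against 676, 627 and 594 CPM in WT ST0. All 3 ST1 libraries were above all 3 ST0 libraries. The log2 fold change was 0.84 (SE 0.22, edgeR quasi-likelihood test, adjusted p = 0.164). Rpl4 lies on chromosome 9, from 64173375 to 64178666 on the plus strand of mm10, and carries 5 snoRNA genes.

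Rps6 (chromosome 4, 86854660 to 86857412, minus strand) stood at 1067, 1018 and 963 CPM in WT ST1, against 816, 674 and 564 CPM in WT ST0. These groups did not overlap either (log2 fold change 0.57, SE 0.20, edgeR adjusted p = 0.401). Rpsa, the 40S protein also known as the laminin receptor, was at 599, 625 and 530 CPM in WT ST1, against 430, 478 and 324 CPM in WT ST0, again without overlap (0.51, SE 0.24, edgeR adjusted p = 0.592). Of its transcript's words, 28.8% are found in other genes.

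The 3 proteins of the stalk, which recruits translation factors to the 60S subunit, lay on the same side. Rplp0 averaged 455 ± 107 CPM in WT ST1 and 306 ± 84.6 CPM in WT ST0 (SD, n = 3 each). Rplp1 averaged 142 ± 56.4 and 103 ± 48.9 CPM in these groups, and Rplp2 averaged 163 ± 20.7 and 103 ± 33.8 CPM. Only the libraries of Rplp2 did not overlap. Rpl5 and Rpl11 form, with 5S RNA, the particle that binds MDM2. Rpl5 averaged 864 ± 146 CPM in WT ST1 and 606 ± 60.2 CPM in WT ST0, without overlap. Rpl11 was at 418, 388 and 241 CPM in WT ST1, against 225, 310 and 221 CPM in WT ST0, with overlap.

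Among other members with a role of their own, Rps4x, an X-linked 40S protein, averaged 560 ± 98.8 CPM in WT ST1 and 363 ± 83.3 CPM in WT ST0, without overlap. Rpl3, which helps to shape the peptidyl transferase centre, averaged 413 ± 79.4 and 271 ± 77.5 CPM in the same groups, with the lowest WT ST1 library (322 CPM) just under the highest WT ST0 library (323 CPM). Rps19, mutated in human Diamond-Blackfan anaemia, averaged 149 ± 48.7 CPM in WT ST1 and 95.02 ± 38.1 CPM in WT ST0, with overlap. Rps14, a 40S protein lost in the human 5q- syndrome, was at 102, 95.9 and 28.2 CPM in WT ST1 and reached 95.4 CPM in 1 WT ST0 library, with the other two at or below 31.6 CPM, so that it varied within groups more than the group means differed.

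Rpl38, a 60S protein known in the mouse for its part in patterning of the skeleton, was the 1 member below 0. It stood at 41.6, 54.0 and 43.5 CPM in WT ST1, against 107, 43.3 and 46.4 CPM in WT ST0 (log2 fold change -0.50, SE 0.50, edgeR adjusted p = 0.901). The difference rested on 1 WT ST0 library: without replicate 1 it was 0.02. Rpl41 was near 0 as well, with 407, 544 and 402 CPM in WT ST1, against 531, 376 and 381 CPM in WT ST0 (0.07, SE 0.23, edgeR adjusted p = 0.979).

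At ST1, the libraries labelled Bcl6KO had lower levels of nearly the whole set than WT. The log2 fold change of Bcl6KO against WT was below 0 for 73 of 76 genes, all 30 of the 40S subunit and 43 of 46 of the 60S subunit, while 51.1% of all genes lay above 0. The members' median was -0.46, against 0.02 for all genes. For 25 of 76 genes all Bcl6KO libraries lay below all WT libraries, while 7.44% of all genes were lower without overlap, and no member was higher without overlap (5.87% of all genes). The count without overlap moved with single libraries, to 51 without WT ST1 replicate 3 and to 52 without Bcl6KO ST1 replicate 1.

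No member passed the test there either, nor did any of the 15704 genes (0%, edgeR quasi-likelihood test). An unadjusted p under 0.05 was found for 6 members, all lower in Bcl6KO, and for 404 genes in all (2.57%, with 1.45% higher and 1.13% lower); DESeq2 and limma voom called no member. The WT ST1 libraries stand in both this comparison and the one of WT stages, so the fold changes of the 2 are not independent, and a high WT ST1 library moves both. The share of counts on rRNA-like genes, another measure that differs here, was 2.13% to 3.75% in Bcl6KO ST1, against 3.20% to 6.15% in WT ST1 and 1.84% to 2.20% in WT ST0. Genes detected were 19181 to 21144 in Bcl6KO ST1, 20953 to 22028 in WT ST1 and 18417 to 21607 in WT ST0. The sums of double-positive markers given above were higher in 2 of 3 Bcl6KO ST1 libraries than in any WT ST1 library. Thymic epithelial markers summed to 31.4 to 36.4 CPM in Bcl6KO ST1, against 25.3 to 27.7 CPM in WT ST1, without overlap. Myeloid and dendritic markers summed to 106 to 240 CPM in Bcl6KO ST1, against 69.6 to 136 CPM in WT ST1, with overlap. The part of each of these in the members' difference was not tested.

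Rpl4 again had the lowest p, with 751, 657 and 585 CPM in Bcl6KO ST1, against 875, 1389 and 1128 CPM in WT ST1 (log2 fold change -0.77, SE 0.22, edgeR adjusted p = 1). The highest Bcl6KO library lay below the lowest WT library. Rpsa came next, with 419, 417 and 309 CPM in Bcl6KO ST1, against 599, 625 and 530 CPM in WT ST1, without overlap (-0.62, SE 0.24, edgeR adjusted p = 1). Rps6 was at 757, 797 and 697 CPM in Bcl6KO ST1, against 1067, 1018 and 963 CPM in WT ST1 (-0.44, SE 0.20, edgeR adjusted p = 1), also without overlap. In Bcl6KO ST1 and in WT ST0 the means were 664 ± 83.0 and 632 ± 41.3 CPM for Rpl4, and 382 ± 63.2 and 411 ± 78.6 CPM for Rpsa.

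**Figure D4:**
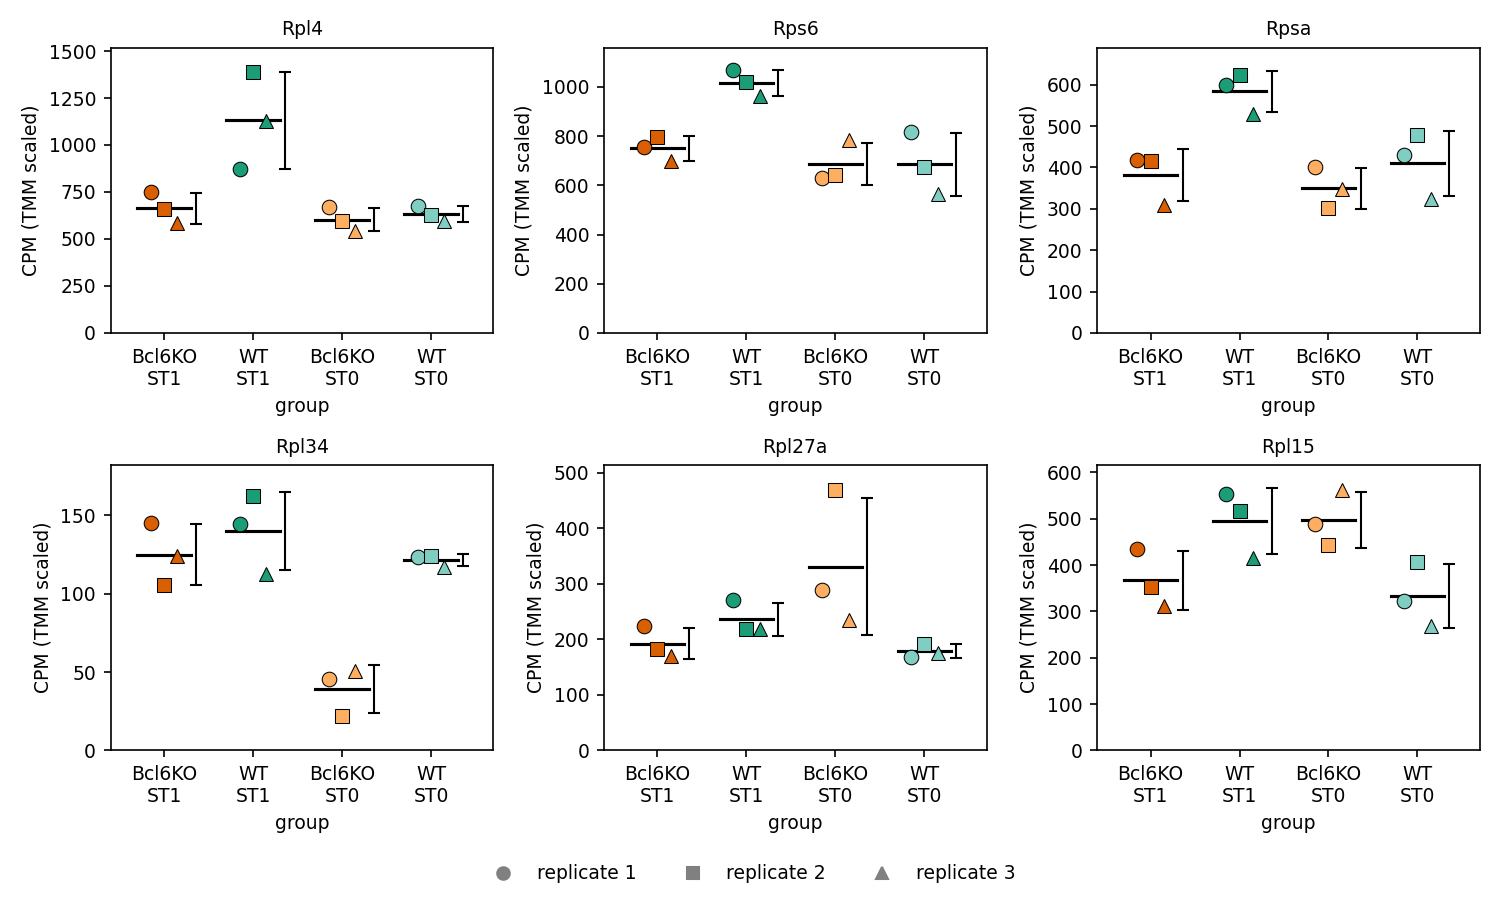
CPM (TMM scaled) of Rpl4, Rps6, Rpsa, Rpl34, Rpl27a and Rpl15 in each of the 12 libraries, with the mean of 3 as a line and the SD as a bar. For Rpl4, Rps6 and Rpsa the WT ST1 libraries are above those of the other groups, while Rpl34 is lowest in Bcl6KO ST0, between 22.1 and 50.4 CPM.

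The 3 exceptions were Rpl41, Rpl22 and Rpl38. Rpl41 was at 545, 508 and 441 CPM in Bcl6KO ST1, against 407, 544 and 402 CPM in WT ST1 (log2 fold change 0.14, SE 0.23, edgeR adjusted p = 1). Rpl22, whose loss in mice blocks alpha-beta T cell development, was at 158, 138 and 151 CPM in Bcl6KO ST1, against 132, 164 and 139 CPM in WT ST1 (0.04, SE 0.31, edgeR adjusted p = 1), and its sign turned with library totals only as the scaling (-0.01) or without WT ST1 replicate 1 (-0.02). Rpl38 averaged 47.7 ± 3.50 CPM in Bcl6KO ST1 and 46.4 ± 6.69 CPM in WT ST1. The groups overlapped for all 3 genes.

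Other members named for a role lay below 0. Rpl10, an X-linked 60S protein needed to mature the subunit, averaged 616 ± 119 CPM in Bcl6KO ST1 and 765 ± 90.8 CPM in WT ST1, without overlap. Rpl39, of the exit tunnel, averaged 114 ± 14.4 and 134 ± 6.61 CPM in these groups, also without overlap. Rps27a, made as a fusion with ubiquitin, averaged 122 ± 49.7 CPM in Bcl6KO ST1 and 155 ± 33.3 CPM in WT ST1, with overlap. Rps28, a small 40S protein, was named by its p in another comparison and not for a role. It was at 52.4, 60.9 and 52.8 CPM in Bcl6KO ST1, against 69.4, 68.2 and 69.6 CPM in WT ST1. Its WT libraries were nearly alike, and its Bcl6KO libraries all below them (log2 fold change -0.32, SE 0.47, edgeR adjusted p = 1).

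At ST0 the set as a whole showed no common side. Bcl6KO against WT was above 0 for 31 members and below 0 for 45, with a median of -0.08 against -0.01 for all genes, of which 49.6% lay above 0. The libraries did not overlap for 4 members that were higher in Bcl6KO (4.67% of all genes) and 4 that were lower (7.95%). Those that were lower numbered 23 without WT ST0 replicate 3, 13 without Bcl6KO ST0 replicate 1 and 7 without its replicate 3, and those that were higher numbered 7 without that last library. With totals only as the scaling, 11 were lower and none higher. With no filter, 5 were lower and 2 higher. No member passed edgeR's test, as against 0.0191% of all genes. An unadjusted p under 0.05 was found for 5 members, 3 higher (5.93% of all genes) and 2 lower (8.77%). Sp100 stands out in these libraries, as given above, and genes detected were 14860 to 17734 in Bcl6KO ST0, against 18417 to 21607 in WT ST0. The median moved with the processing: with totals only as the scaling it was -0.56, while the median of all genes moved to -0.46, and with the Sp100 share as a covariate it was 0.45, against 0.11 for all genes. The Sp100 share was 10.8% or more in Bcl6KO ST0 and at most 5.03% in the other groups, so that the covariate largely follows this group; its part in the median was not separated from the group's.

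Rpl34, a 60S protein on chromosome 3 (130726831 to 130730398, minus strand), stood apart from the other members at ST0. It was counted at 45.3, 22.1 and 50.4 CPM in the libraries labelled Bcl6KO, against 123, 124 and 117 CPM in WT ST0. The highest Bcl6KO library held less than the lowest WT library. The log2 fold change was -1.63 (SE 0.37, edgeR quasi-likelihood test, adjusted p = 0.112), and DESeq2 called it (-1.63, adjusted p = 8.64e-04) while limma voom did not. Over all alternatives the adjusted p ran from 8.64e-04 to 0.724. The log2 fold change was again negative, -0.74, with the Sp100 share as a covariate. In this comparison DESeq2 called 1107 genes in all, edgeR 3 and limma voom 1. Only 7.78% of the words in the Rpl34 transcript are shared with other genes.

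In the same comparison Rpl27a, a 60S protein, was higher without overlap, with 289, 469 and 234 CPM in Bcl6KO ST0, against 168, 192 and 175 CPM in WT ST0 (log2 fold change 0.89, SE 0.29, edgeR adjusted p = 0.208). Rpl15, also of the 60S subunit, showed no overlap either, with 488, 443 and 562 CPM in Bcl6KO ST0, against 323, 406 and 269 CPM in WT ST0 (0.58, SE 0.24, edgeR adjusted p = 0.296). Rpl23a, at the tunnel's mouth where the signal recognition particle binds, had 150, 94.7 and 132 CPM in Bcl6KO ST0, against 230, 236 and 167 CPM in WT ST0 (-0.75, SE 0.30, edgeR adjusted p = 0.287). Of its exonic bases 62.3% lie in other genes, among them Tlcd1, and its sign turned with the Sp100 share as a covariate (0.11). These genes did not share a side.

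In Bcl6KO cells, ST1 against ST0 was above 0 for 43 members and below 0 for 33, with a median of 0.06, against 0.01 for all genes, of which 50.5% lay above 0. Rpl34 was at 145, 106 and 124 CPM in Bcl6KO ST1, against 45.3, 22.1 and 50.4 CPM in Bcl6KO ST0. It had the largest change of the 76 genes (log2 fold change 1.67, SE 0.37, edgeR adjusted p = 0.0583, where 0.675% of all genes passed), and DESeq2 called it with an adjusted p of 4e-04. Over all alternatives the adjusted p ran from 4e-04 to 0.776. DESeq2 called 1483 genes in all for these stages, and edgeR 106. Rpl27a was on the other side, with 224, 182 and 170 CPM in Bcl6KO ST1, against 289, 469 and 234 CPM in Bcl6KO ST0 (-0.78, SE 0.29, edgeR adjusted p = 0.195). The groups did not overlap for either gene. The Bcl6KO ST0 libraries stand in both this comparison and that of genotypes at ST0, so their fold changes are not independent. These libraries also enter the interaction and both averages given below. Without overlap, 4 members were higher (11.6% of all genes) and 3 lower (5.81%), counts that moved to 20 higher and 0 lower with totals only as the scaling, to 4 higher and 0 lower with no filter, to 3 higher and 5 lower with RLE factors, and to 15 higher and 8 lower without Bcl6KO ST0 replicate 1. Leaving out Bcl6KO ST0 replicate 3 gave 10 and 7, and leaving out Bcl6KO ST1 replicate 3 gave 12 higher. Without Bcl6KO ST0 replicate 2 or Bcl6KO ST1 replicate 1, 8 were lower. No member passed edgeR's test, and an unadjusted p under 0.05 was found for Rpl34 and Rpl27a alone, against 9.98% of all genes higher and 6.43% lower. With totals only as the scaling the members' median was 0.56, while that of all genes moved to 0.50. With the Sp100 share as a covariate the members' median was -0.46, against -0.12 for all genes, with 17 of 76 above 0, and Rpl34 was at 0.69.

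**Figure D5:**
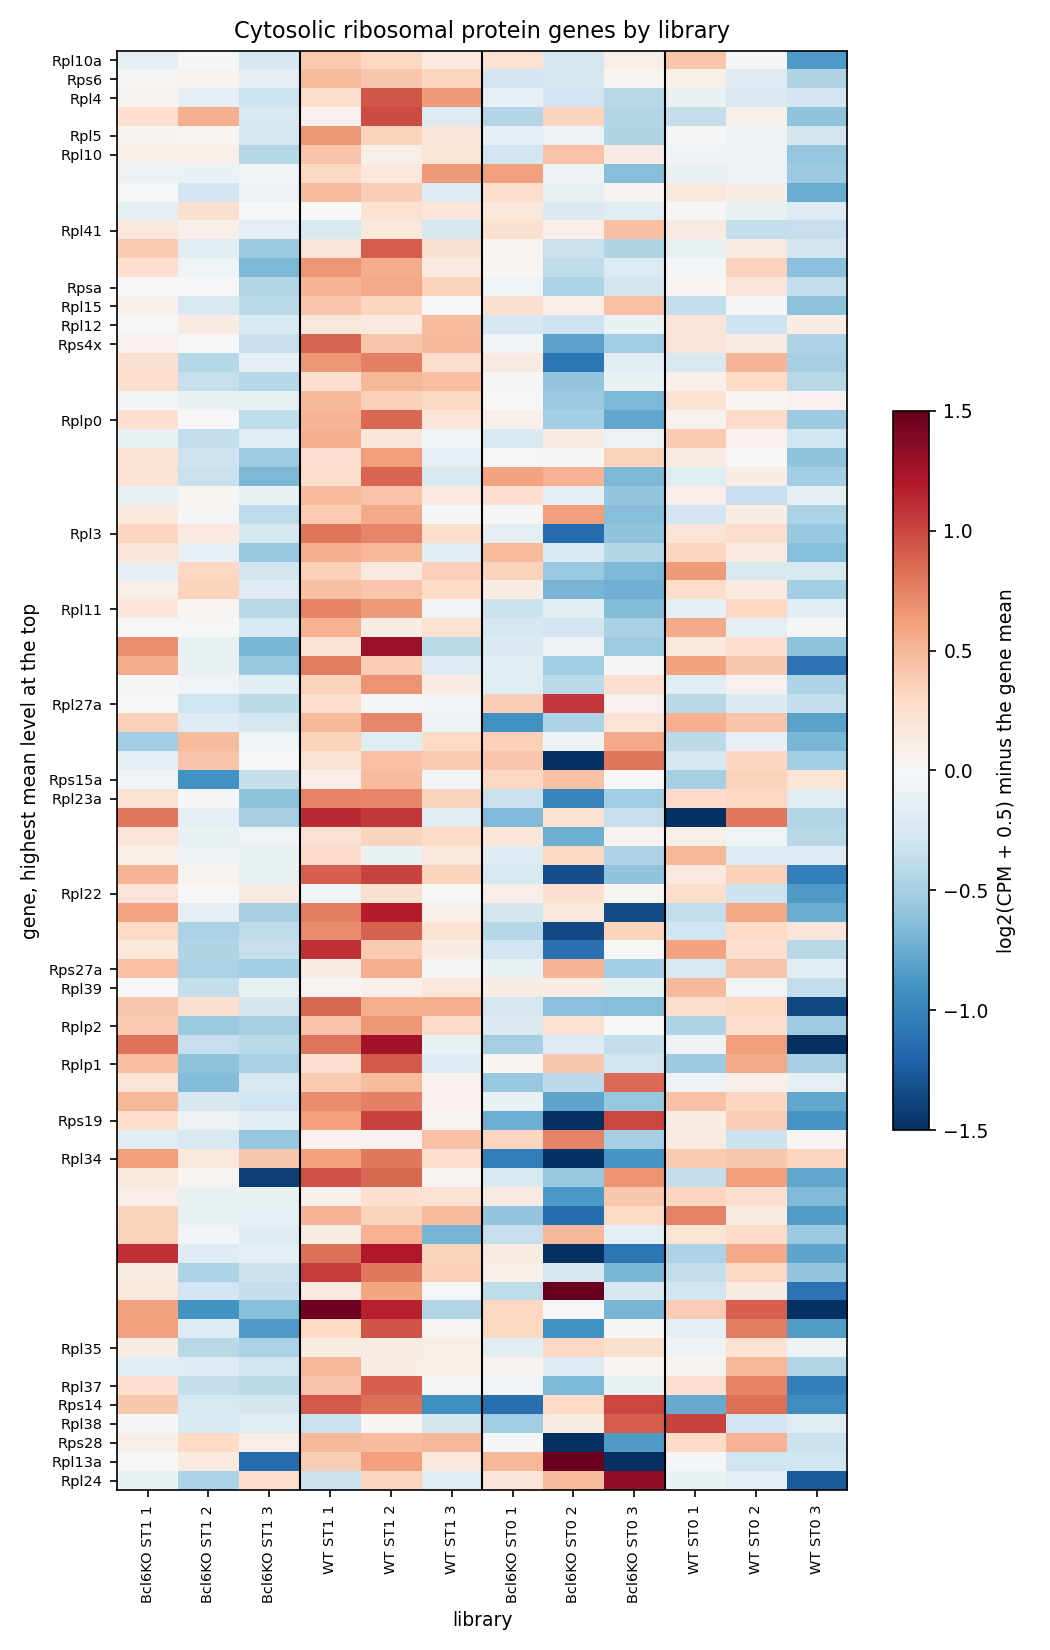
Log2(CPM + 0.5) of each of the 76 genes in each of the 12 libraries, minus the gene's mean over libraries, with genes ordered by mean level and those named in the text labelled; colours end at -1.5 and 1.5. Most genes are above their mean in the WT ST1 libraries and below it in WT ST0 replicate 3 and Bcl6KO ST1 replicate 3, while Rpl34 is low in all Bcl6KO ST0 libraries.

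Whether the genotype difference changed between stages was tested by the interaction term, Bcl6KO against WT at ST1 minus the same at ST0. It was below 0 for 62 of 76 members, with a median of -0.35, against 0.05 for all genes, of which 51.8% lay above 0. No gene of the 15704 passed (0%, edgeR quasi-likelihood test), 4 members (1 higher, 3 lower) and 1221 genes (5.25% of all higher, 2.52% lower) had an unadjusted p under 0.05, and neither DESeq2 nor limma voom called a member. For Rpl34 the term was 1.47 (SE 0.51) and for Rpl15 and Rpl27a it was -1.01 (SE 0.34) and -1.19 (SE 0.41), each with an edgeR adjusted p of 0.530. The median of the members turned with totals only as the scaling (0.08, against 0.46 for all genes), and was -0.88 with the Sp100 share as a covariate, against -0.01 for all genes.

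Averaged over genotypes, ST1 against ST0 was above 0 for 65 members (median 0.24, against 0.03 for all genes, of which 51.2% lay above 0), and none passed edgeR's test, while 3.46% of all genes did. An unadjusted p under 0.05 was found for 10 members, all higher, against 18.3% of all genes (10.3% higher, 7.98% lower). The lowest adjusted p was 0.0624, for Rpl34 (log2 fold change 0.94, SE 0.26); DESeq2 and limma voom both called that gene, with adjusted p of 0.00752 and 0.0493. Over all alternatives its adjusted p ran from 0.00752 to 0.842. DESeq2 called 1676 genes in all in the stage average, and limma voom 769. With the Sp100 share as a covariate the members' median was -0.07 and 30 lay above 0. With totals only the median was 0.52, against 0.31 for all genes, and 3 members were called, among 550 of all 15704 genes. Averaged over stages, Bcl6KO against WT was below 0 for 64 members (median -0.29, against 0.00 for all genes, of which 49.8% lay above 0). None passed edgeR's test, against 0.00637% of all genes. An unadjusted p under 0.05 was found for 10 members, all lower, against 4.57% of all genes higher and 6.34% lower. DESeq2 called Rpl34 alone of the members, and 546 genes in all. With the Sp100 share as a covariate the median was 0.02 and 37 lay below 0, and with totals only it was -0.54, against -0.26 for all genes.

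The members' levels varied together from library to library within groups. After removal of group means, the median correlation between pairs of members over the 12 libraries was 0.35 and 79.6% of pairs were above 0. Over pairs of all tested genes these values were 0.01 and 50.8%, and over 9317 genes within the members' range of levels the median was 0.00. These are descriptions across libraries that share scaling and depth. The first component of the members held 44.7% of their variance. The number of the 76 genes above their group's mean was 8 in Bcl6KO ST1 replicate 3 and 68 in replicate 1, 15 in WT ST1 replicate 3 and 57 in replicate 2, and 5 in WT ST0 replicate 3 and 61 in replicate 2. In each of these 3 groups the lowest number was that of replicate 3. In Bcl6KO ST0 the number ran only from 29 to 47, with 34 in replicate 3. Rpl37, a 60S protein, had the highest median correlation with other members (0.61) and Rpl12, of the stalk base, the lowest (-0.15); both were chosen for these values.

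Only 76 of the 15704 tested genes are members, and with 12 libraries the highest of so many correlations can be high for any gene. That the genes given here were not members therefore says nothing about how members resemble each other. The genes most like single members over these libraries are given as a description. For Rps6 they were Gm26616, Polm and Pmpcb (r of 0.954, 0.939 and 0.934). For Rpl22 they were Gpr180, 1700095J12Rik and Glmn (0.970, 0.931 and 0.929), and for Rplp0 Taf1b, Gm37876 and Gm37886 (0.955, 0.946 and 0.941).

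The members were also split by start sequence, with the rule given above. A gene without a run under that rule is not shown to lack a TOP tract. In WT cells, the median of ST1 against ST0 was 0.39 for the 34 genes with a TOP-like run and 0.51 for the 22 without one. For Bcl6KO against WT at ST1 the medians were -0.45 and -0.51. At ST0 they were -0.03 and -0.13.

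Of 9 tested ribosomal proteins outside the naming rule and paralogs of members, 6 lay above 0 for ST1 against ST0 in WT (median 0.10) and 2 for Bcl6KO against WT at ST1 (median -0.13). Rps3a1, a 40S protein, was at 552, 390 and 261 CPM in Bcl6KO ST1, 607, 897 and 476 CPM in WT ST1, 428, 258 and 289 CPM in Bcl6KO ST0 and 464, 443 and 274 CPM in WT ST0. Rack1, the 40S scaffold that binds kinases, averaged 159 ± 29.9 CPM in Bcl6KO ST1, 262 ± 63.2 CPM in WT ST1, 164 ± 104 CPM in Bcl6KO ST0 and 161 ± 55.8 CPM in WT ST0. Among paralogs of members, Rpl36al had an overall mean of 192 CPM, Rpl7l1 of 104 CPM and Rpl22l1, the paralog of Rpl22, of 54.2 CPM. None of the 9 passed edgeR's test in any comparison, and Rpl39l and Rpl10l were listed at 0 in every library.

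Translation factors and other genes with known TOP mRNAs, 27 in all, summed to 8132 to 9766 CPM in Bcl6KO ST1, 11450 to 13100 CPM in WT ST1, 7328 to 9211 CPM in Bcl6KO ST0 and 7223 to 9172 CPM in WT ST0. WT ST1 lay above the other groups without overlap. None of the 27 passed edgeR's test in any comparison. In WT cells 21 of them had a positive log2 fold change for ST1 against ST0 (median 0.23), and at ST1 2 of them were above 0 for Bcl6KO against WT (median -0.35). Eef1a1, which brings charged tRNA to the ribosome and was the most abundant, was at 2778, 1807 and 1475 CPM in Bcl6KO ST1, against 3357, 4635 and 2181 CPM in WT ST1, with overlap.

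The other lists had medians near 0 in the WT stages. Of 22 genes of mTORC1, MYC and LARP tested, 11 were above 0 for WT ST1 against ST0 (median 0.03), and at ST1 5 of 22 were above 0 for Bcl6KO against WT (median -0.22). The most abundant of them, Cnbp, encodes a protein that binds nucleic acids and TOP mRNAs. Importers and assembly chaperones of ribosomal proteins had 8 of 14 above 0 in WT (median 0.02), genes of the MDM2 and p53 checkpoint 6 of 9 (median 0.06) and genes of ribosome quality control 8 of 16 (median -0.07). None of these genes passed edgeR's test in any of the 7 comparisons.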

How the data were processed

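The deposited values are raw read counts for 48672 Ensembl IDs in each of 12 libraries. The submitters' processing notes name mm10 as the build and TopHat2, Bowtie2, bcl2fastq and DESeq as tools. How reads were assigned to genes, with what annotation and strand, is not given in the sources used here. Per the labels' protocols, RNA was purified with a QIAGEN kit and libraries were made with a NuGEN kit for low inputs. Symbols and coordinates came from GENCODE M21 (48312 IDs matched), and start windows from RefSeq (GRCm38.p6). No genome sequence was used, so shared words were counted against transcripts of other genes.

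Counts were scaled by TMM and tested with edgeR 4.0.16 (R 4.3.3), robust quasi-likelihood, 1 mean per group over all 12 libraries, 8 residual degrees of freedom, two-sided, with Benjamini-Hochberg adjustment over the 15704 genes that passed filterByExpr; all 76 members passed. The common biological coefficient of variation was 0.835. The procedure was run on simulated counts with larger folds than the members' median changes. That run does not tell how often changes of the members' size are found. Chi-square per gene between libraries of a group was 27.6 or more, so none was a duplicate. Genes named were the 3 highest and 3 lowest per kilobase of merged exon, up to 2 per direction by p in each comparison, 17 with a known role, and the most abundant of each list. Some single genes are not reported here. Members and lists were chosen with earlier results of these data known. Alternatives were other scalings, no filter, DESeq2 1.42.0, limma voom 3.58.1, the replicate block, an Sp100 covariate, pseudogenes added to parents and each library left out; levels per transcript length, counts on a side of 0, overlap counts and summed CPM were added after seeing the data.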

Additional observations from a re-analysis of the deposited data

How the results depend on the processing

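Of the 7 comparisons, 2 kept their median and count in all 21 alternatives. A median counted as kept if it moved by less than 0.27, the pooled SD between libraries of the members' median log2 CPM. Counts of members on a side of 0 were allowed to move within a fixed ratio. For WT ST1 against ST0 the members' median lay between 0.31 and 0.58, with 65 to 75 members above 0, and for Bcl6KO against WT at ST1 between -0.63 and -0.37, with 69 to 75 below 0. No member was called in either. Summed levels no longer separated Bcl6KO ST1 and WT ST1 with RLE factors, totals only or no filter, nor WT ST1 and WT ST0 with totals only. Without WT ST0 replicate 3, Bcl6KO ST0 lay wholly below WT ST0. The other 5 comparisons moved. With totals only, Bcl6KO against WT at ST0 had a median of -0.56 with 70 members below 0. On that scale ST1 against ST0 in Bcl6KO had 0.56, 70 above 0 and 1 called, among 172 genes in all. The stage average had 0.52 and 3 called (Rps6, Rpl4, Rpl34), among 550 genes in all. The interaction had 0.0842 with 30 below 0. With the Sp100 share as covariate the medians were 0.45 at ST0 (18 below 0), -0.46 for stages in Bcl6KO (17 above 0), 0.01999 for the genotype average (37 below 0), -0.0716 for the stage average (30 above 0) and -0.88 for the interaction. The Bcl6KO ST0 share was 1.73% without Sp100, Malat1 and rRNA-like genes. The cause was not tested.

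DESeq2 called 1 member at ST0, for stages in Bcl6KO and in both averages, and limma voom 1 in the stage average. The unfiltered fit called 1 for stages in Bcl6KO, among 309 genes in all. The member was Rpl34 each time. All of these comparisons include the same Bcl6KO ST0 libraries, so the calls are not independent. Leaving out 1 library in turn called none. Signs that turned were those of Rpl23a at ST0 (0.11), Rpl3 for stages in Bcl6KO (-0.56), Rpl38 in the stage average (0.17) and Rps28 in the interaction (-0.61), each with the Sp100 covariate; and Rps15a in the stage average (0.0262) and Rpl22 at ST1 (-0.00651) with totals only. Without 1 library, Rpl22 at ST1 ran from -0.0237 to 0.133 and Rpl38 for stages in WT from -0.763 to 0.0154. Calls over all genes ran from 0 to 1107 for Bcl6KO against WT at ST0, 0 to 16 at ST1, 20 to 385 for stages in WT, 0 to 1483 in Bcl6KO, 0 to 546 and 16 to 1676 for the averages of genotype and stage, and 0 to 199 for the interaction, with DESeq2 highest in each. Same-numbered libraries correlated between -0.08 and 0.12 over all tested genes after removal of group means. Low values over all genes cannot decide whether the numbers mark a batch. The ratio of 60S to 40S counts was highest in replicate 3 of every group (1.76 in Bcl6KO ST1, 1.81 in WT ST1, 1.83 in Bcl6KO ST0 and 1.77 in WT ST0). With the replicate block no member was called, and all-gene calls were 53 for stages in WT and 39 in Bcl6KO. The members' medians were then 0.46 for stages in WT and -0.46 for Bcl6KO against WT at ST1. The lowest counts of a member in any library were 13 for Rpl24, 57 for Rpl13a, 88 for Rps28 and 90 for Rps10. The part of depth in the members' values was not tested.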
